A study of Mus musculus with 35 samples.

Results

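The genes described here carry glucose through glycolysis and the pentose phosphate pathway, or belong to the response of cells to low oxygen. Of 37 named genes, 34 had a probe set of their own among the 18194 genes read on the arrays, and where a gene had several, the brightest on average over all 35 arrays was used. Gpi1, Eno1 and G6pdx were not analysed here. Gapdh was read from the 3′ control probe set that the array carries for it. The values are expression levels on a log scale, taken as log2 from their range, so a difference of 1 is a doubling. The lowest value on any array, 2.30, is called the floor, and an array had 43.6% to 48.3% of its probe sets there.

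The arrays held total RNA of cells sorted by flow cytometry from male C57BL/6J mice, 8 weeks old. The labels name no treatment or genetic change. Bone marrow gave SatM, a monocyte that the labels tie to fibrosis (2 arrays), inflammatory monocytes (2), SMP, the progenitor named for SatM, and cMoP, the shared monocyte progenitor (4 arrays each, of which 2 are titled WT), and the earlier progenitors GMP and MDP (1 each). Spleen gave basophils, eosinophils and neutrophils (2 each). A panel of 15 further arrays held SatM of spleen, marrow, blood and lung, Msr1-Ceacam1- cells of spleen, marrow and blood, other Ly6C- cells of spleen and blood, Msr1dull Ceacam1dull cells of marrow and lung, M2-like resident macrophages of spleen and marrow (1 array each) and lung macrophages (2, with different titles). The lung arrays are titled BAL. Nothing says that the arrays of a group came from separate mice, so p-values measure the spread between arrays, which may be technical, and the small number of arrays limits the precision.

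Some groups went against their labels or carried markers of other cells. The median of the basophil and mast cell markers was 12.95 to 13.66 in the SMP arrays and 2.30 in every cMoP array. Msr1-Ceacam1- cells, labelled monocytes, had NK cell marker medians of 9.73 to 11.86 and classical monocyte marker medians of 2.40 to 2.93. SatM of lung had a classical monocyte marker median of 13 and a macrophage marker median of 10.85. The marrow arrays of panel SatM and Msr1dull Ceacam1dull cells had neutrophil marker medians of 13.49 and 13.63 and progenitor marker medians of 11.67 and 12.36. Eosinophil and basophil arrays also carried neutrophil markers (10.95 to 12.26) and proliferation markers (11.11 to 11.76).

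Glycolysis splits glucose to pyruvate and yields ATP without oxygen. Glucose enters through transporters such as Slc2a1 (GLUT1) and Slc2a3 (GLUT3), hexokinases trap it and phosphofructokinases commit it. Pyruvate then becomes lactate, carried across the membrane by Slc16a1 (MCT1) and Slc16a3 (MCT4), or enters the mitochondria, a route that the pyruvate dehydrogenase kinases (Pdk1, Pdk4) restrain. The pentose phosphate pathway makes ribose and NADPH, which neutrophils use for the oxidative burst. Hif1a is the oxygen-sensitive subunit of the hypoxia-inducible factor, Egln3 is a prolyl hydroxylase that marks it for destruction, and Bnip3 and Vegfa are textbook targets of the factor.

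The hypoxia-inducible factor binds DNA at a short core, ACGTG or GCGTG. RefSeq promoter windows of 300 bases (GRCm38.p6, 250 bases before to 50 after the start) were held for 33 members and not for Slc2a3. Either form stood on either strand in at least 1 window of 30 of these 33 members (90.9%), against 12628 of 27025 genes (46.7%). ACGTG alone did so in 20 members (60.6%) and 5886 genes (21.8%). Counted by window, 36 of 46 member windows held either form and 43.8% of all 32851. Base composition and the number of windows per gene were not matched in these shares. The promoters of the lactate carriers, the lactate dehydrogenases and Pdk1 are shown because the results below turn on these genes. Capitals mark both forms of the core. The form ACGTG is read on both strands where it falls in the palindrome CACGTG. For a gene with several windows, the one with the most ACGTG is shown. Slc16a3 lies at chr11:120948817-120949116 (+ strand), Slc16a1 at chr3:104638414-104638713 (+ strand), Ldha at chr7:46845554-46845853 (+ strand), Ldhb at chr6:142507908-142508207 (- strand) and Pdk1 at chr2:71872974-71873273 (+ strand).
Slc16a3: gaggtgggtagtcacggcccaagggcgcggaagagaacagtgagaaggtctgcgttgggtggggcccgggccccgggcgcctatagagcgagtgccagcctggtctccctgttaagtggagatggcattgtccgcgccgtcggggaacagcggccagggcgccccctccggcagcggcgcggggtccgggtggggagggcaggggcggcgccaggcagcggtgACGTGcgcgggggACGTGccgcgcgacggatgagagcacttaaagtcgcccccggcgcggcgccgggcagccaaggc
Slc16a1: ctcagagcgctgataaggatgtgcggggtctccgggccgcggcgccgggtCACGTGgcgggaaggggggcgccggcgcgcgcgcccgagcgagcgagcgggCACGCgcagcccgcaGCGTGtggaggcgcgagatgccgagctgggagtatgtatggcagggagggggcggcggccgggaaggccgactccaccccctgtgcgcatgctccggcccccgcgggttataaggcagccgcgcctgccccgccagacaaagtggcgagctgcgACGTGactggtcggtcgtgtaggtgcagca
Ldha: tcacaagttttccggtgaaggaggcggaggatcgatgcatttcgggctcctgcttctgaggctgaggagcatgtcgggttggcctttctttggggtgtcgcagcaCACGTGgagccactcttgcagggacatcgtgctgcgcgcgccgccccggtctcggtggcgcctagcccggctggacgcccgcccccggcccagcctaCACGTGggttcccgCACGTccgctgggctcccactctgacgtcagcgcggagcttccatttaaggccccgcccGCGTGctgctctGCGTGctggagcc
Ldhb: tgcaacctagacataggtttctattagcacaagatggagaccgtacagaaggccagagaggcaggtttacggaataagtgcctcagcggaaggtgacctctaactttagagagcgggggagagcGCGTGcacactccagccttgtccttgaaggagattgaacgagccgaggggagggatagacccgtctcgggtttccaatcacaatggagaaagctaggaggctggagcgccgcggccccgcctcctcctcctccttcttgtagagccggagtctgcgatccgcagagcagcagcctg
Pdk1: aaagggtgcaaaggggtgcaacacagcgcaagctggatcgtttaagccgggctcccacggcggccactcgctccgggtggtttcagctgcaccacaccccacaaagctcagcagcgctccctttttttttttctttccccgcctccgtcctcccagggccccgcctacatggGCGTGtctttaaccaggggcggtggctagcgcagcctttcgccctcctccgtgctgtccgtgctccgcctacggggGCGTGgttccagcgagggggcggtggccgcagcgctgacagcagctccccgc
ACGTG was read 5 times in the Ldha window, which held 2 copies of CACGTG, 3 times in Slc16a1 and 2 times in Slc16a3, and not in Ldhb or Pdk1. GCGTG was read 2 times each in Ldha, Slc16a1 and Pdk1, 1 time in Ldhb and not in Slc16a3. A match describes the letters only, and binding of the factor was not measured.

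Nearly all members differed between cell types. In limma's moderated F test over the 7 replicated cell types of marrow and spleen, 29 of 33 members tested passed an adjusted p under 0.05, beside 72.1% of all 12078 genes tested. Aldoa (adjusted p = 0.0696), Aldoc (0.313), Pdk4 (0.289) and Fbp1 (0.282) did not pass, and Eno2 was too low to be tested. Of the 32 members whose highest group mean was over 1 above the floor, neutrophils had that mean in 18, beside 21.8% of the 10723 genes so compared. SatM alone had the lowest mean, by more than 0.05, in 9 of the 32 (Hk1, Hk2, Hk3, Aldoa, Pgk1, Ldha, Pgd, Hif1a and Bnip3), beside 11.6% of genes. SMP had the highest mean of Slc2a1, Hk2, Pfkp and Hif1a, cMoP of Slc16a1 and Pdk1, and inflammatory monocytes of Ldhb. Not all of these ranks are separated by more than the spread between arrays.

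Slc2a3 had the widest range over the 35 arrays, from 2.60 on a lung macrophage array to 14.53 in neutrophils, and Gapdh the narrowest, from 12.07 to 14.18. A few members were off in most cells. Eno2, the neuronal enolase, lay at the floor on 28 arrays, Pdk4 on 24 and Fbp1, a gluconeogenic phosphatase, on 21. Eno2 was above 5 in Msr1-Ceacam1- cells of spleen (9.28) and Msr1dull Ceacam1dull cells of lung (10.53) and nowhere else. Aldoc read 2.35 on 19 arrays.

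**Figure D1:**
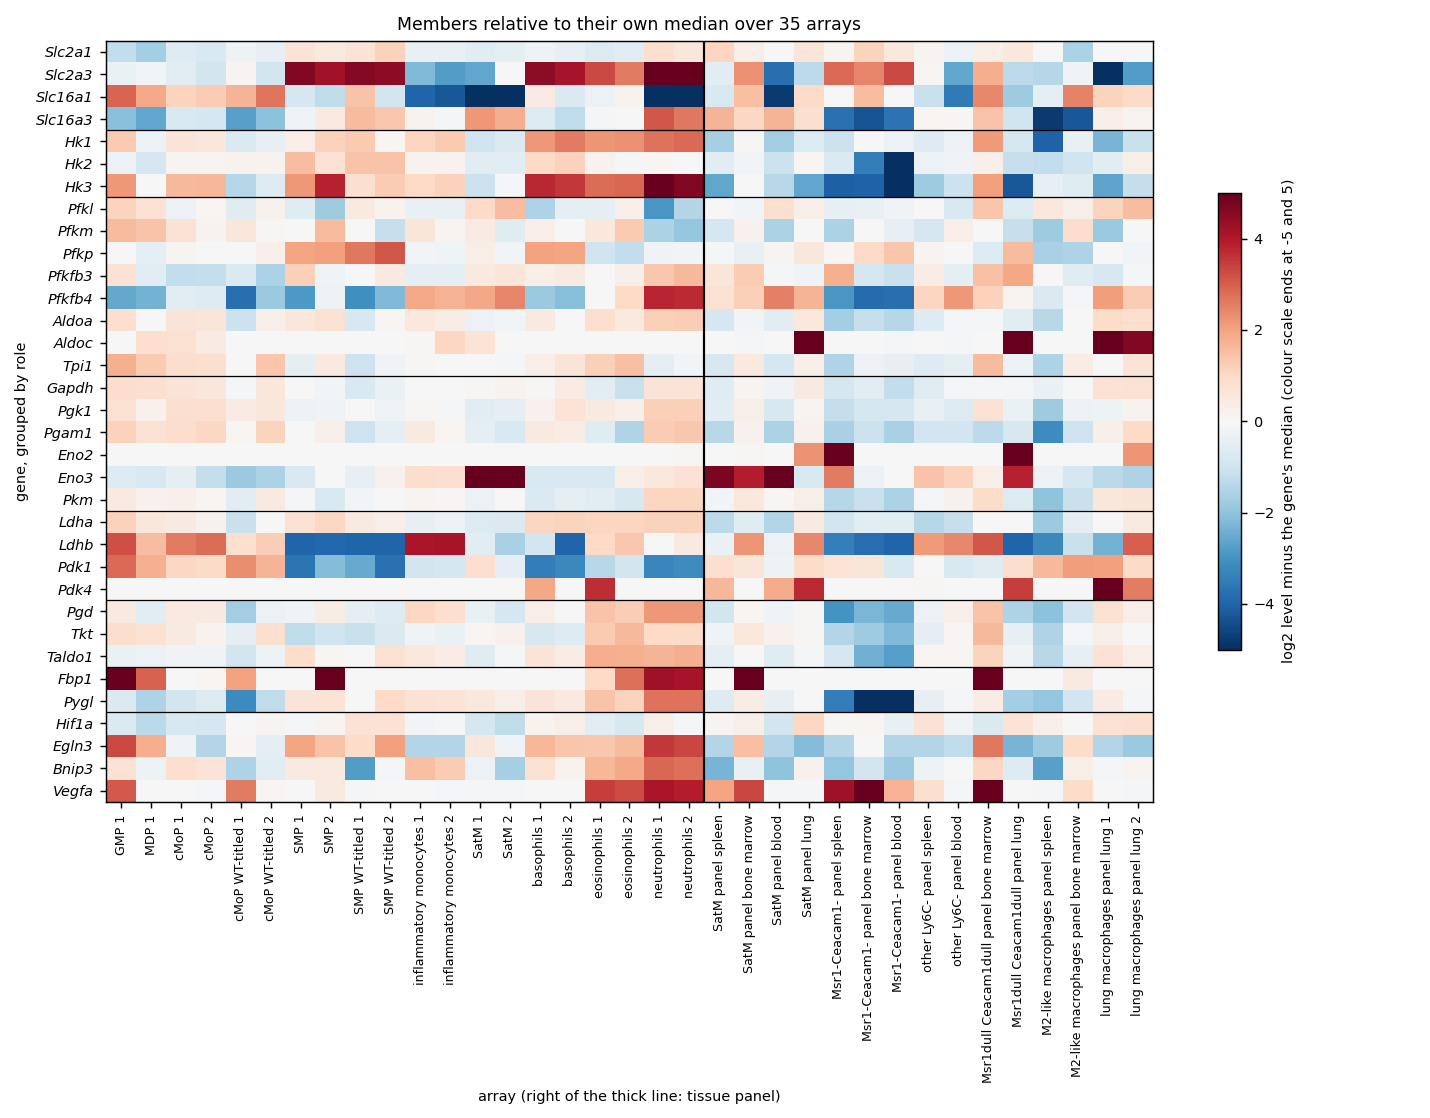
Each cell is the log2 level of a member (vertical axis, grouped by role) on an array (horizontal axis) minus that gene's median over 35 arrays. Slc2a3 is highest in SMP, basophils and neutrophils. Eno3 is highest in the SatM arrays outside lung and in Msr1dull Ceacam1dull cells of lung. Aldoc is above its usual reading of 2.35 on the lung arrays.

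The question put to the progenitors was how SMP differ from cMoP. SMP had more mRNA of the glucose transporters Slc2a1 and Slc2a3, the hexokinases Hk2 and Hk3, the platelet-type phosphofructokinase Pfkp and Pfkfb3, which makes an activator of phosphofructokinase. Slc16a3, Eno3, the glycogen phosphorylase Pygl and Egln3 were also higher, while Ldhb, Pdk1, Slc16a1, transketolase (Tkt), Tpi1 and Pgam1 were lower. That is 16 of 33 members called, 10 higher and 6 lower, beside 35.5% of all genes (12.8% higher, 22.7% lower). A call is an adjusted p under 0.05 in limma with a difference of at least 1. The median difference of group means was 0.02 over the 34 members and -0.09 over all genes tested. Eno3 and Tpi1 lost their calls with any of 3 single arrays left out and with the compared groups alone, and Pgam1 with either of 2 arrays left out. The other Pfkfb3 probe set was not called, and on the mean of its probe sets Pfkfb3 differed by 0.93, under the fold threshold. In the arrays not titled WT, Eno3 (0.48, adjusted p = 0.378), Tpi1 (-0.83), Pgam1 (-0.86) and Hk3 (adjusted p = 0.0528) were not called.

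Slc2a3 read 13.52, 13.06, 13.46 and 13.33 in the SMP arrays and 8.36, 7.95, 9.03 and 7.94 in the cMoP arrays. The groups lay far apart, by 5.02 ± 0.44 (SE, adjusted p = 1.56e-06), and the other 3 probe sets of Slc2a3 were called the same way. Pfkp read 11.74, 11.84, 12.41 and 12.88 in SMP and 9.75 to 10.05 in cMoP, a difference of 2.35 ± 0.18 (SE, adjusted p = 3.6e-07) that its other 2 probe sets shared. Slc2a1 read 11.94 to 12.63 in SMP and 10.70 to 11.22 in cMoP (1.26 ± 0.12 (adjusted p = 2.85e-06)). Hk2, the inducible hexokinase, read 11.51 to 12.33 against 10.91 to 10.96 (1.13 ± 0.15 (adjusted p = 5.12e-05)). None of these 4 genes overlapped between the groups, but a lack of overlap was part of the rule by which genes were given in full. Without SMP array 1 the Hk2 difference was 0.99, just under the fold threshold.

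At the end of the pathway the direction was mixed. Ldhb, the heart-type lactate dehydrogenase, read 2.30, 2.37, 2.30 and 2.30 in SMP, at or beside the floor, and 8.91, 9.09, 7.09 and 7.54 in cMoP. The difference was -5.84 ± 0.55 (SE, adjusted p = 2.91e-06), and all 4 Ldhb probe sets were called. Ldha, the muscle-type enzyme, read 11.56 to 12.26 in SMP and 10.13 to 11.69 in cMoP, and its difference of 0.76 ± 0.19 (adjusted p = 0.00497) was under the fold threshold. Pdk1 read 4.28, 5.76, 5.42 and 4.19 in SMP and 8.99, 8.90, 10.25 and 9.63 in cMoP. All 4 Pdk1 probe sets were called, with -4.53 ± 0.41 (SE, adjusted p = 2.15e-06) on the one used.

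The lactate carriers went opposite ways. Slc16a3 read 7.71, 8.42, 9.51 and 9.25 in SMP and 7.13, 7.04, 5.21 and 5.85 in cMoP (2.42 ± 0.46 (adjusted p = 0.000977)), and in the arrays not titled WT the difference was 0.98, under the fold threshold. Slc16a1 read 7.65, 7.21, 9.90 and 7.58 in SMP and 9.59, 9.78, 10.18 and 11.17 in cMoP (-2.09 ± 0.43 (adjusted p = 0.00156)). The groups overlapped in Slc16a1 through 1 WT-titled SMP array, and in the WT-titled arrays alone the call was lost (adjusted p = 0.0525).

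Of the pentose phosphate members, Tkt read 11.39 to 11.94 in SMP and 12.19 to 13.47 in cMoP (-1.27 ± 0.22 (adjusted p = 0.00046)), with 1 of its other 2 probe sets called. Pgd was not called (0.04 ± 0.27 (adjusted p = 0.963)), and Taldo1 passed the p threshold with a difference of 0.83. Pygl, which frees glucose from glycogen, read 9.94 to 10.88 against 6.74 to 9.23 (2.09 ± 0.37 (adjusted p = 0.000511)). In the hypoxia group, Egln3 read 5.68 to 6.78 against 3.27 to 4.81 (2.10 ± 0.36 (adjusted p = 0.000386)), Hif1a differed by 0.77 ± 0.12 (adjusted p = 0.000216), under the fold threshold, and Bnip3 was not called (adjusted p = 0.632).

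Markers of other cells moved with these differences. All 7 basophil and mast cell markers were higher in SMP (median difference 10.32), as were 6 of 8 neutrophil markers (3.14), 4 of 6 eosinophil markers (4.70) and 3 of 4 erythroid markers tested (1.48), while all 5 classical monocyte markers (-6.16) and 4 of 7 progenitor markers (-3.05) were lower. Their part was not tested. Spleen basophils, set beside SMP without a test, read 13.34 and 13.01 for Slc2a3, 11.78 and 11.74 for Pfkp, 4.49 and 4.72 for Pdk1 and 5.37 and 2.31 for Ldhb. In sorted bulk samples such as these, fewer cells of a type and less RNA per cell cannot be told apart. Among 27 other genes of glycolysis and pyruvate use that were tested, 5 were higher, with Ldhc at 2.99, and 4 lower, with the lactate carrier Slc16a7 at -3.97. All 5 called of 8 other pentose phosphate genes were lower, with Tigar at -5.44. Of 14 glycogen genes 2 were lower, and of 28 HIF pathway genes 6 were higher, with Ddit4 at 5.01, and 5 lower, with Mif at -2.92.

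**Figure D2:**
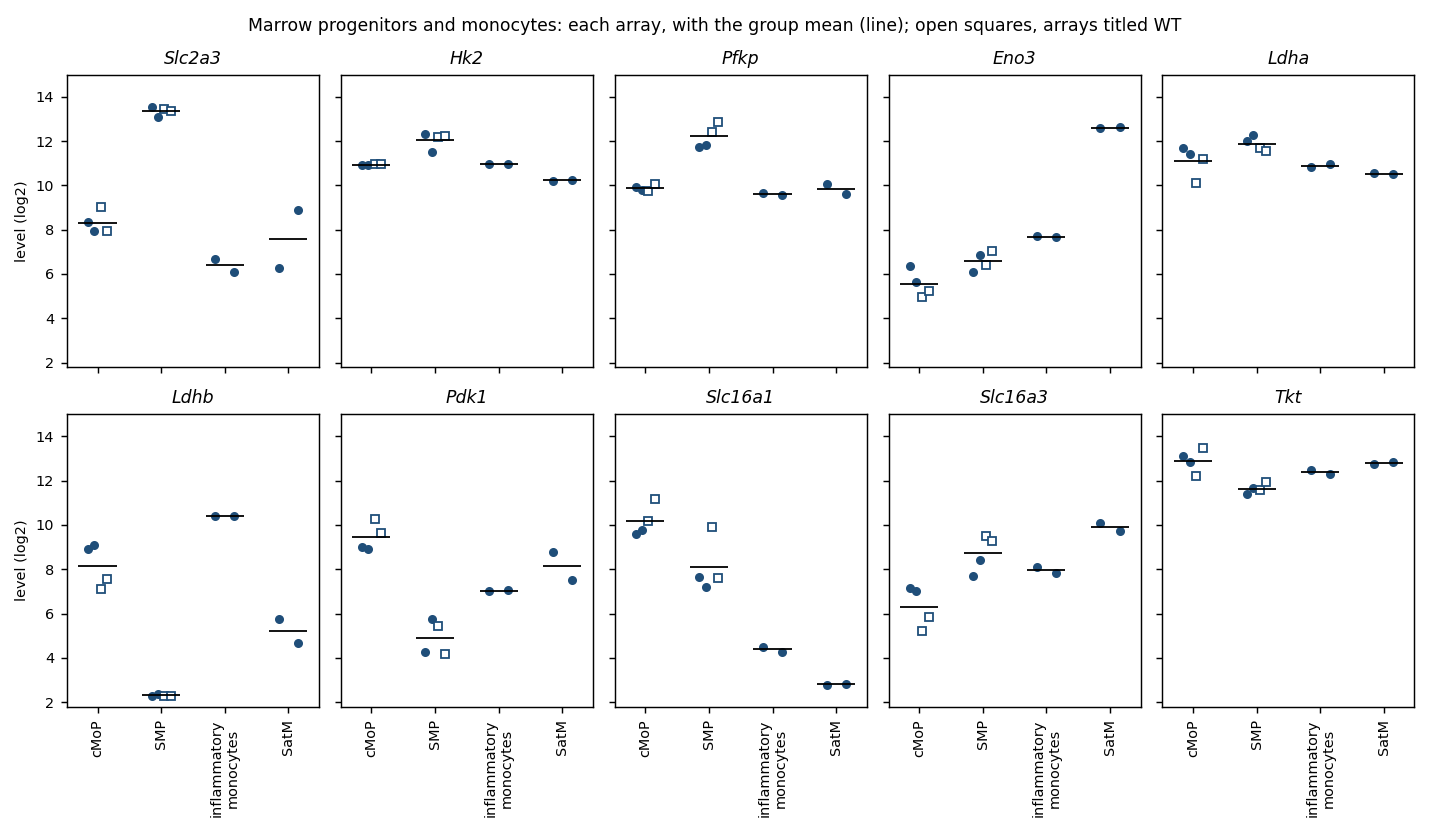
Log2 levels (vertical axis) of 10 members in marrow progenitors and monocytes (horizontal axis), with each array as a point, arrays titled WT as open squares and group means as lines. Ldhb lies between 2.30 and 2.37 on all SMP arrays, and Eno3 reads 12.57 and 12.61 in SatM.

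Mature SatM and inflammatory monocytes differed in fewer members. The muscle enolase Eno3 was higher in SatM, and Ldhb, Hk1, Hk3, Pgd and Bnip3 were lower. These are 6 of 33 members, 1 higher and 5 lower, beside 9.34% of all genes (2.87% higher, 6.47% lower). The median difference of group means was -0.17 over the members and -0.02 over all genes tested.

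Eno3 read 12.57 and 12.61 in SatM and 7.71 and 7.67 in inflammatory monocytes. The difference was 4.90 ± 0.45 (SE, adjusted p = 1.44e-05). Ldhb read 5.76 and 4.67 in SatM and 10.40 and 10.42 in inflammatory monocytes (-5.19 ± 0.78 (adjusted p = 0.000898)), and its other 3 probe sets were called too. Eno3 and Ldhb kept their calls with each array left out and under each of 11 other settings.

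The other calls were less firm. Hk1, the hexokinase of most tissues, read 5.96 and 6.20 in SatM and 8.02 and 8.25 in inflammatory monocytes (-2.05 ± 0.43 (adjusted p = 0.00814)), but its other probe set differed by 0.27 and was not called. Hk3, the hexokinase of myeloid cells, read 7.17 and 8.17 against 9.22 and 9.40 (-1.65 ± 0.48 (adjusted p = 0.0485)). Pgd, which makes NADPH, read 11.82 and 11.33 against 13.23 and 13.02 (-1.55 ± 0.38 (adjusted p = 0.0218)), and Bnip3 read 7.30 and 5.92 against 9.08 and 8.89 (-2.38 ± 0.68 (adjusted p = 0.0419)). Although no pair of groups overlapped, Hk3, Pgd and Bnip3 each kept the call with only 1 of the 4 arrays left out, and without inflammatory monocyte array 1 or 2 the members called were 3 and 2. Neutrophil marker medians were 9.59 and 10.80 in SatM and 8.38 and 7.28 in inflammatory monocytes. Eosinophil marker medians were 6.85 and 5.82 in SatM and 2.30 and 2.30 in inflammatory monocytes, with 4 of 6 called higher. Prg2, an eosinophil granule protein, read 12.69 and 11.51 against 2.30 on both. All 4 called of 5 classical monocyte markers were lower in SatM. The part of these markers was not tested.

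Of the other pathway genes, glycolysis and pyruvate use had 1 higher (Gpd2, 2.03) and 3 lower, with Slc37a2 at -2.56. Pgls of the pentose phosphate pathway was lower (-1.5). None of 14 glycogen genes was called in limma, and 1 had an unadjusted p under 0.05. The HIF pathway had 5 higher and 2 lower, from 3.90 for Ddit4 to -6.75 for Ndrg1.

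The step from each progenitor to its named monocyte was compared next. Inflammatory monocytes had more Pfkfb4, Eno3 and Pygl and less Slc16a1 and Pdk1 than cMoP, 5 of 33 members, 3 higher and 2 lower, beside 14.9% of all genes (6.62% higher, 8.25% lower). Between SatM and SMP, Slc2a1, Slc2a3, Hk1, Hk2, Hk3, Pfkp, Ldha, Slc16a1 and Hif1a were lower in SatM and Pfkl, Pfkfb4, Eno3, Ldhb, Pdk1 and Tkt higher. These are 15 of 33 members beside 26.8% of all genes (12.8% higher, 14.0% lower). No other probe set of Hk1 or Hif1a was called between SatM and SMP. Hk1 also lost its call with the compared groups alone (-1.6, adjusted p = 0.156 in limma). The comparisons share arrays with those above. The differences given for each step are fitted with a term for the arrays titled WT. Markers of other cells moved with both steps. From SMP to SatM all 7 basophil and mast cell markers (median difference -10.87) and 6 of 7 proliferation markers (-4.33) were lower, and from cMoP to inflammatory monocytes all 7 proliferation markers (-4.60) and 6 of 7 progenitor markers (-6.47) were. In the difference of the steps tested below, all 7 basophil and mast cell markers were negative (-10.32). The part of these markers was not tested.

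Slc16a1 was lower in both monocytes, at 4.49 and 4.27 in inflammatory monocytes (-5.22 ± 0.57 (adjusted p = 4.01e-05)) and 2.79 and 2.81 in SatM (-4.71 ± 0.57 (adjusted p = 3.46e-05)). The panel SatM array of marrow read 10.02, and with it added the difference from SMP was -2.31 and not called (adjusted p = 0.275). The other Slc16a1 probe set was called in neither step. Pfkfb4, a relative of Pfkfb3, was higher in both, at 8.49 and 8.36 in inflammatory monocytes and 8.54 and 9.06 in SatM, against 2.83 to 6.03 in cMoP and 3.55 to 6.33 in SMP. Its differences were 2.71 ± 0.73 (adjusted p = 0.0217) and 3.48 ± 0.73 (adjusted p = 0.0027).

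From cMoP to inflammatory monocytes, Pfkfb4, Pdk1 and Pygl lost their calls with either monocyte array left out, and Eno3 without array 1. The members called were then 1 (without array 1) and 2 (without array 2). Against the WT-titled cMoP arrays alone 14 members were called, with Ldhb (3.09), Bnip3 (2.44), Hk3 (2.12) and Pgd (1.96) among those added. The share of all genes called in that fit is not given here, so the rise cannot be read as particular to the members. With the replicate number as a block 3 members were called.

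From SMP to SatM a transporter, 2 hexokinases and a phosphofructokinase fell, each with its call kept when any of the 6 arrays was left out. Slc2a3 read 6.26 and 8.88 in SatM (-5.67 ± 0.59 (adjusted p = 8.89e-06)), Hk2 10.20 and 10.24 (-1.76 ± 0.20 (adjusted p = 1.72e-05)), Hk3 7.17 and 8.17 (-3.74 ± 0.45 (adjusted p = 3.51e-05)) and Pfkp 10.07 and 9.63 (-2.14 ± 0.23 (adjusted p = 1.37e-05)). The panel SatM array of marrow read higher for Slc2a3, at 11.17. With that array added, the other transporter, Slc2a1, differed from SMP by -0.82, under the fold threshold, and lost its call. Ldha read 10.54 and 10.50, below every SMP array (-1.70 ± 0.25 (adjusted p = 0.000164)). Ldhb rose by 2.47 ± 0.73 (adjusted p = 0.0217), a call lost without SatM array 1 (adjusted p = 0.169), SMP array 1 (0.0647) or SMP array 2 (0.0673) and with the replicate block (0.0913). Pfkl (2.04) and Hif1a (-1.07) lost their calls without SatM array 2 or SMP array 2, with the panel SatM array of marrow added and with the replicate block, where they differed by 1.69 (adjusted p = 0.13) and -0.95. Pdk1 read 8.78 and 7.49 in SatM and rose by 3.42 ± 0.55 (adjusted p = 0.000372), and Eno3 rose by 5.83 ± 0.42 (adjusted p = 3.44e-07).

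Whether the steps themselves differed was tested as the SatM step minus the monocyte step. They did in 14 of 33 members, 3 positive and 11 negative, beside 22.3% of all genes (11.1% in either direction). Pdk1 showed the widest gap: the group means rose by 3.23 from SMP to SatM and fell by 2.41 from cMoP to inflammatory monocytes, which gave 5.64 ± 0.72 (SE, adjusted p = 0.000108), with all 4 probe sets called. Eno3 (3.85 ± 0.55 (adjusted p = 0.000271)) and Tkt (1.67 ± 0.38 (adjusted p = 0.00663)) were the other positive members. The negative ones were Slc2a1, Slc2a3, Hk1, Hk2, Hk3, Pfkp, Ldha, Pgd, Taldo1, Pygl and Hif1a, from -3.84 for Slc2a3 to -1.13 for Ldha. All 3 hexokinases were among them, with Hk2 at -1.85 ± 0.26 (adjusted p = 0.00021), although the other Hk1 probe set gave -0.11 and was not called. Hif1a differed by -1.74 ± 0.21 (adjusted p = 7.11e-05), with 1 of its other 3 probe sets called. With the panel SatM array of marrow added, Slc2a3 (adjusted p = 0.125) and Pgd (0.0511) lost their calls. Ldha lost its call without either SatM array, either inflammatory monocyte array or the first WT-titled cMoP array. Pgd and Pygl lost theirs without either inflammatory monocyte array or SatM array 2. Ldha and Pgd were not called with the compared groups alone. Without the term for WT-titled arrays, Hk3, Ldha and Pgd were not called.

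**Figure D3:**
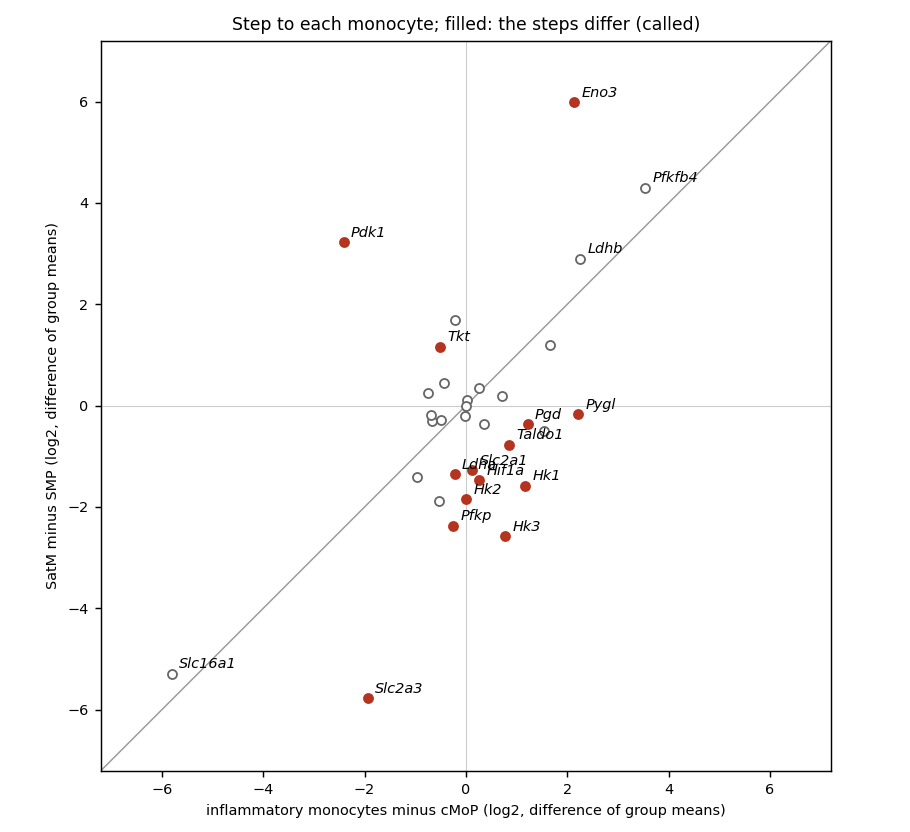
Difference of group means (log2) from cMoP to inflammatory monocytes (horizontal axis) and from SMP to SatM (vertical axis), with each member as a point and filled points for the 14 members whose steps differed. Pdk1 lies at -2.41 and 3.23, with opposite signs.

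GMP and MDP, with 1 array each, allow no test. They read 10.76 and 9.70 for Pdk1, 11.39 and 10.40 for Slc16a1, and 9.54 and 7.84 for Ldhb, on the side of cMoP rather than SMP in each. Egln3 read 8.04 in GMP and 6.58 in MDP. GMP had the highest Slc16a1, Pdk1, Tpi1, Gapdh and Ldha of all 35 arrays.

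Among spleen granulocytes, neutrophils had more mRNA of the transporter Slc2a1, the lactate carrier Slc16a3, pyruvate kinase (Pkm), Pfkfb3, Pfkfb4, Pygl and Egln3 than both other types, and less Slc16a1 and Pfkm. Against eosinophils, Slc2a1, Slc2a3, Slc16a3, Hk3, Pfkfb3, Pfkfb4, Gapdh, Pgam1, Pkm, Pygl and Egln3 were higher and Slc16a1, Pfkl, Pfkm, Tpi1 and Pdk1 lower. These are 16 of 33 members, 11 higher and 5 lower, beside 40.5% of all genes (17.4% higher, 23.1% lower). Against basophils 18 of 33 were called, 14 higher and 4 lower, beside 37.4% (15.6% higher, 21.8% lower). Those higher were Slc2a1, Slc16a3, Pfkfb3, Pfkfb4, Eno3, Pkm, Ldhb, Pgd, Tkt, Taldo1, Pygl, Egln3, Bnip3 and Vegfa, and those lower Slc16a1, Hk2, Pfkm and Pfkp. Of these, Pfkm, Pfkfb3 and Eno3 lost the call with any of the 4 arrays left out, Bnip3 with 3 of them and Slc2a1, Hk2, Ldhb and Egln3 with 2. Ldhb differed by 2.69, and by 1.16 without basophil array 2. Against eosinophils, Pfkl, Pfkfb3, Tpi1 and Pdk1 lost the call with 2 of the 4 arrays left out in turn. The other Pfkfb3 probe set was called against basophils and not against eosinophils. The median difference of group means over the members was 0.81 against eosinophils and 1.0 against basophils, with -0.02 and -0.01 over all genes tested.

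The lactate carriers divided the granulocytes. Slc16a3 read 11.01 and 10.54 in neutrophils, 7.86 and 7.91 in eosinophils and 7.21 and 6.64 in basophils. Neutrophils were higher than eosinophils by 2.89 ± 0.66 (adjusted p = 0.00309) and than basophils by 3.86 ± 0.66 (adjusted p = 0.000428). Slc16a1 read 2.37 and 2.70 in neutrophils, near the floor, 8.18 and 8.67 in eosinophils and 8.89 and 7.78 in basophils. Its differences were -5.89 ± 0.61 (adjusted p = 7.69e-06) and -5.80 ± 0.61 (adjusted p = 8.49e-06), and its other probe set was called in neither.

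The transporters and hexokinases were mixed. Slc2a3 read 14.53 and 14.40 in neutrophils, 12.17 and 11.48 in eosinophils and 13.34 and 13.01 in basophils, and differed from eosinophils on all 4 probe sets (2.64 ± 0.63 (adjusted p = 0.00407)). Against basophils it was not called (adjusted p = 0.123), though 2 of its other 3 probe sets were. Hk3 read 13.29 and 12.86, 11.04 and 11.10 and 12.01 and 11.78 in the same order (2.00 ± 0.48 (adjusted p = 0.00458) against eosinophils, and not called against basophils, adjusted p = 0.0704). Pfkfb4 read 10.42 and 10.32 in neutrophils, 6.61 and 7.60 in eosinophils and 4.74 and 4.48 in basophils (3.27 ± 0.78 (adjusted p = 0.00423) and 5.75 ± 0.78 (adjusted p = 7.16e-05)). Neutrophils had the highest mean of the 3 types on each of these genes. Hk2 ran the other way, with 10.89 and 10.77 in neutrophils and 11.78 and 11.91 in basophils (-1.02 ± 0.21 (adjusted p = 0.0017)), and was not called against eosinophils (10.93 and 10.69). Hk1 was called in neither comparison (adjusted p = 0.35 and 0.53).

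The muscle-type phosphofructokinase Pfkm ran the other way, with 2.66 and 2.30 in neutrophils and 4.78 and 5.54 in eosinophils (-2.68 ± 0.60 (adjusted p = 0.00287)). Pfkp was high in basophils alone, at 11.78 and 11.74 against 9.61 and 9.64 in neutrophils and 8.78 and 8.57 in eosinophils, but only on the probe set used, since neither of its other 2 was called. Basophils exceeded eosinophils in it by 3.09 ± 0.25 (adjusted p = 2.74e-06).

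Of the later enzymes, Pgam1 read 12.38 and 12.43 in neutrophils and 10.49 and 9.61 in eosinophils (2.35 ± 0.35 (adjusted p = 0.000139)). Pkm, pyruvate kinase, read 12.22 and 12.21 in neutrophils, 10.59 and 10.31 in eosinophils and 10.42 and 10.70 in basophils (1.76 ± 0.30 (adjusted p = 0.000471) and 1.65 ± 0.30 (adjusted p = 0.000776)). Ldha was called in neither comparison, with 95% intervals of the difference of -0.52 to 0.63 against eosinophils and -0.53 to 0.62 against basophils. Pygl read 12.61 and 12.60 in neutrophils, 11.32 and 11.02 in eosinophils and 10.54 and 10.40 in basophils. It differed from basophils by 2.13 ± 0.52 (adjusted p = 0.00514), while the call against eosinophils (adjusted p = 0.0392) was lost with any of the 4 arrays left out.

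Basophils were the low type for the pentose phosphate members. Pgd read 12.50 and 12.18 in basophils, 13.62 and 13.40 in eosinophils and 14.36 and 14.33 in neutrophils (neutrophils minus basophils 2.00 ± 0.38 (adjusted p = 0.00102)). Tkt read 11.86 and 11.99, 13.97 and 14.27 and 13.63 and 13.62 in the same order, and basophils differed from eosinophils on all 3 probe sets (-2.20 ± 0.31 (adjusted p = 0.000278)). Taldo1 read 11.14 and 10.89 in basophils and 12.23 to 12.34 in both other types (1.25 ± 0.30 (adjusted p = 0.00512) for neutrophils).

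Of the hypoxia members, Vegfa read 6.93 and 6.76 in neutrophils, 6.30 and 6.12 in eosinophils and 2.84 and 2.81 in basophils (4.02 ± 0.63 (adjusted p = 0.000237) over basophils), with its other probe set too low to test. Egln3 read 8.27 and 8.10 in neutrophils and 6.09 to 6.4 in the others, and was called on 1 of its 2 probe sets. Hif1a itself differed from eosinophils by 0.79 ± 0.17 (adjusted p = 0.00225), under the fold threshold, and from basophils by -0.13 (95% interval -0.50 to 0.24).

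Basophils and eosinophils differed in 11 of 33 members, 4 higher and 7 lower, beside 20.6% of all genes (11.3% higher, 9.36% lower). Hk2, Pfkp, Gapdh and Pgam1 were higher in basophils, and Pfkfb4, Ldhb, Pdk1, Pgd, Tkt, Taldo1 and Vegfa lower. Ldhb read 5.37 and 2.31 in basophils, which lay far apart from each other, and 7.28 and 7.66 in eosinophils (-3.63 ± 0.78 (adjusted p = 0.00489)). Without basophil array 1, basophil array 2 or eosinophil array 2, the members called were 7, 5 and 6, and neutrophils differed from basophils in 10 without basophil array 2.

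RNA quality moved with each eosinophil comparison. The 3′ minus 5′ difference of the control probe sets was 5.91 and 6.68 for Gapdh and 5.88 and 5.86 for Actb in eosinophils, against 2.85 and 3.22 and 2.34 and 2.73 in neutrophils. The Gapdh difference between neutrophils and eosinophils was 1.49 on the 3′, 2.41 on the middle and 4.75 on the 5′ probe set. The part of RNA quality in the other members was not tested. With both eosinophil arrays left out of the model, 18 members were called between neutrophils and basophils. That contrast holds no eosinophil array, so this count does not bear on the eosinophil comparisons.

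Of the other pathway genes, 6 of 27 in glycolysis and pyruvate use were higher in neutrophils than in eosinophils, with the hexose transporter Slc2a6 at 5.54, and 6 lower. Of 8 pentose phosphate genes, Tigar was higher (2.25) and 4 were lower, with Prps1, which uses ribose 5-phosphate, at -4.55. Pygb, the brain-type glycogen phosphorylase, was lower in neutrophils than in eosinophils (-3.55) and basophils (-3.90), opposite to Pygl. Against basophils 5 of 14 glycogen genes were higher, with the branching enzyme Gbe1 at 3.24, and 2 lower. HIF pathway genes were mixed, with 6 of 28 higher and 8 lower against eosinophils and 2 higher and 5 lower against basophils.

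**Figure D4:**
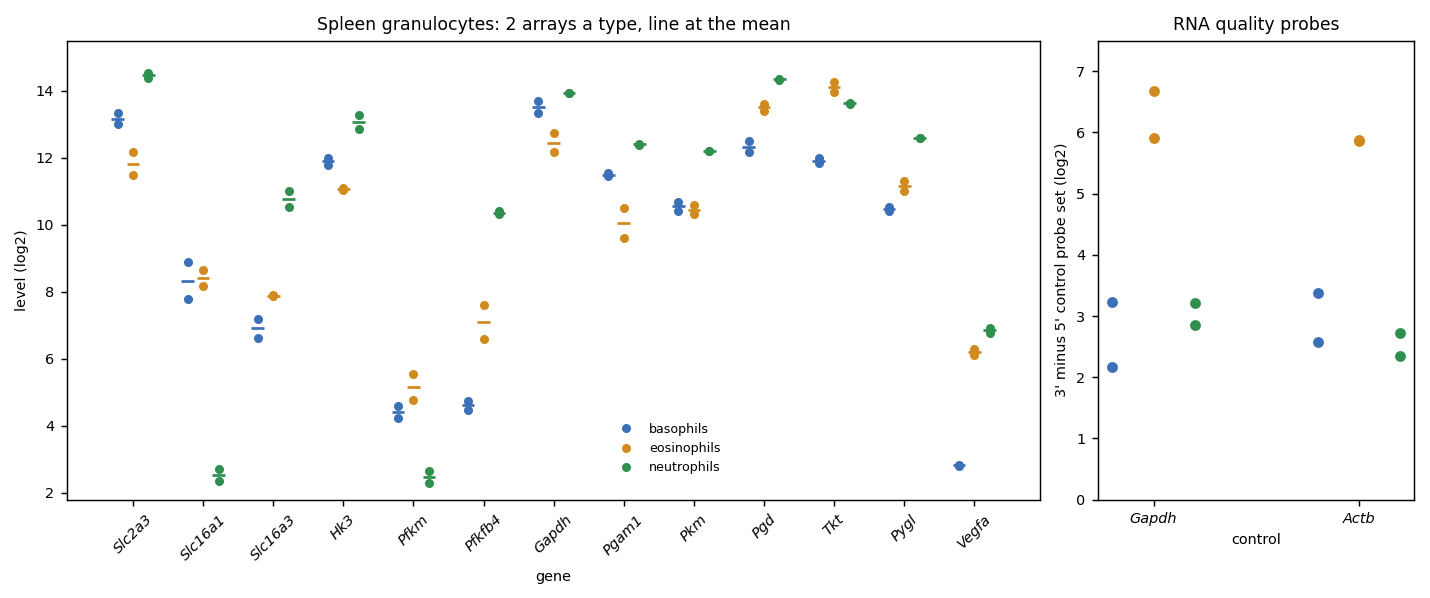
Left, log2 levels (vertical axis) of members (horizontal axis) in spleen basophils, eosinophils and neutrophils, 2 arrays each with a line at the mean. Right, the 3′ minus 5′ difference (log2) of the Gapdh and Actb control probe sets on the same arrays, where eosinophils lie at 5.86 to 6.68.

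In the tissue panel, SatM were set against Msr1-Ceacam1- cells with a term for tissue. SatM had more of the lactate exporter Slc16a3, Hk3, Pfkfb4, Aldoa, Pkm, Pgd, Tkt and Pygl and less Vegfa. These are 9 of 34 members, 8 higher and 1 lower, beside 10.2% of all 11735 genes tested (4.94% higher, 5.28% lower). The median difference of group means was 0.78 over the members and -0.01 over all genes tested. NK cell markers, given above, moved with this contrast, and their part was not tested.

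Slc16a3 read 9.61, 8.94, 9.61 and 8.71 in SatM of spleen, marrow, blood and lung, and 4.20, 3.60 and 4.22 in Msr1-Ceacam1- cells of spleen, marrow and blood (5.56 ± 0.41 (adjusted p = 0.000249)). Pfkfb4 read 7.36, 7.79, 9.13 and 8.30 in SatM and 3.69, 2.77 and 2.84 in Msr1-Ceacam1- cells (5.12 ± 0.53 (adjusted p = 0.0012)). Pygl read 9.26, 10.27, 9.51 and 9.90 against 6.44, 3.89 and 4.10 (5.08 ± 0.72 (adjusted p = 0.00499)), and Pkm 10.99, 11.64, 11.24 and 11.44 against 9.71, 10.04 and 9.55 (1.65 ± 0.25 (adjusted p = 0.00667)). These 4 genes were picked among called members without overlap between the groups, and each kept its call with any array left out. Vegfa read 4.80, 6.17, 2.80 and 2.80 in SatM and 7.09, 8.32 and 4.57 in Msr1-Ceacam1- cells, so the groups overlapped. Among single arrays left out, it kept its call only without SatM of lung. Hk3, Aldoa, Pgd and Tkt lost theirs with some single arrays left out. No other probe set of Hk3, Aldoa or Vegfa was called. Without SatM of blood, or Msr1-Ceacam1- cells of marrow or blood, 4 members were called, and with these groups alone in the model 2 were.

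M2-like macrophages had less Slc16a3, Pkm and Vegfa than SatM, 3 of 34 members beside 8.31% of all genes (5.39% higher, 2.92% lower). Macrophage marker medians were 12.15 in spleen and 12.82 in marrow, but both arrays carried markers of other cells. Medians in marrow were 9.41 for progenitor, 9.69 for proliferation and 8.22 for erythroid markers, against 2.42, 4.97 and 5.08 in spleen. Those in spleen were 9.56 for B cell and 7.49 for T cell markers, against 7.55 and 4.48 in marrow. The part of these markers was not tested. Slc16a3 read 3.14 and 3.69 in spleen and marrow macrophages (-6.11 ± 0.47 (adjusted p = 0.000254)), and Pkm 9.14 and 10.04 (-1.91 ± 0.29 (adjusted p = 0.00781)). Vegfa read 2.80 and 3.77 (-2.37 ± 0.51 (adjusted p = 0.0273)), overlapping SatM, and its other probe set was not called. With either macrophage array left out Slc16a3 alone was called, and without SatM of lung 6 members were. Of the other pathway genes, Gpd1, a glycerol-3-phosphate dehydrogenase, was higher in the macrophages by 5.99 and Slc37a2, a sugar phosphate transporter, by 5.26.

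No member was called between lung macrophages and SatM (0 of 34 in limma), beside 0.239% of all genes (0.128% higher, 0.111% lower). An unadjusted p under 0.05 was reached by 1 member. With 1 SatM array of lung, the fit had little power, and uncalled differences were -2.98 for Eno3 and 1.68 for Pdk4. The 2 lung macrophage arrays had alveolar macrophage marker medians of 11.69 and 6.98 and classical monocyte marker medians of 7.03 and 11.78. The part of these markers was not tested. Without SatM of lung 4 members were called (Eno3, Pgd, Pfkl and Pkm), but the fit then ties lung to the other tissues through the single lung array of Msr1dull Ceacam1dull cells. Without the lung macrophage array numbered 2, Aldoc and Pdk4 were called. Eno3 was lower in SatM of lung than in the other panel SatM, at 11.54, 10.75, 11.81 and 6.07 in spleen, marrow, blood and lung. Lung macrophages read 5.50 and 5.28 for it, and Msr1dull Ceacam1dull cells 7.14 in marrow and 10.71 in lung. Eno3 was not called between SatM and Msr1-Ceacam1- cells (adjusted p = 0.202), but was without SatM of lung (3.77, adjusted p = 0.00875).

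Lung and marrow were compared within SatM and Msr1dull Ceacam1dull cells. Aldoc and Hif1a were higher in lung and Egln3 and Vegfa lower, 4 of 34 members beside 9.30% of all genes (6.25% higher, 3.05% lower). Aldoc, an aldolase best known from brain, read 7.68 and 7.48 in these lung cells and 2.30 and 2.35 in marrow (5.25 ± 0.67 (adjusted p = 0.00662)), on both probe sets. The lung macrophage arrays read 9.67 and 6.98, and none of the other 31 arrays was above 3.38. Pdk4 read 4.87 to 10.82 on the 4 lung arrays and was called in no comparison.

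Egln3 read 6.27 and 7.40 in marrow and 2.56 and 2.44 in lung (-4.02 ± 0.48 (adjusted p = 0.0055)). Vegfa read 6.17 and 8.09 in marrow and 2.80 and 2.83 in lung (-4.17 ± 0.52 (adjusted p = 0.00629)), but its other probe set differed by -0.22 and was not called. Hif1a read 11.75 and 10.74 in marrow and 12.49 and 12.15 in lung (1.15 ± 0.21 (adjusted p = 0.0206)), and lost its call without either Msr1dull Ceacam1dull array. The groups did not overlap in any of the 4 genes, which is no separate support, since the genes were picked by the call and each side has 2 arrays.

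Neutrophil marker medians were 13.49 and 13.63 on these marrow arrays and 3.60 and 2.96 on the lung arrays, and the marrow Msr1dull Ceacam1dull array had a 3′ minus 5′ difference of 5.85 for Gapdh. Their part was not tested. With these 4 arrays alone in the limma model 0 members were called, with 7 at an unadjusted p under 0.05, and without SatM of lung, where lung and marrow meet only in 1 Msr1dull Ceacam1dull array each, 12 were. Of 28 other HIF pathway genes 1 was higher in lung, Vhl (2.04), which carries Hif1a to degradation, and 4 were lower, with Ak4 at -5.26.

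**Figure D5:**
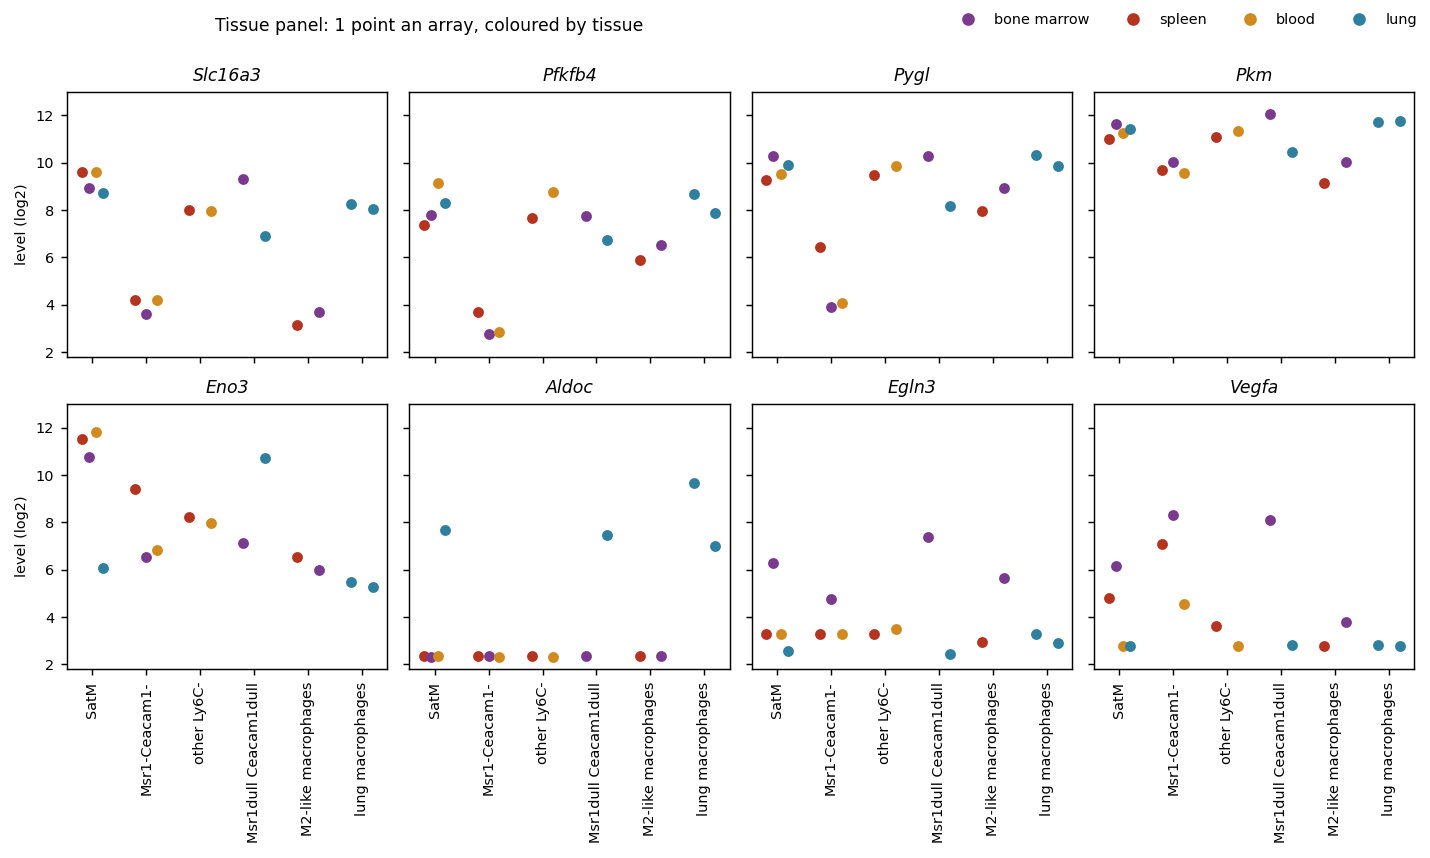
Log2 levels (vertical axis) of 8 members on the panel arrays by cell type (horizontal axis), 1 point an array, coloured by tissue. Slc16a3 is between 3.14 and 4.22 in Msr1-Ceacam1- cells and M2-like macrophages and at least 6.92 on the other arrays, and Aldoc is high on the 4 lung arrays.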

How the data were processed

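RNA of 35 sorted cell samples was read on Affymetrix mouse arrays. The deposited table holds the authors' log2 values for 45101 probe sets, already normalized between arrays. The method is not given in the sources used here, and log base 2 is inferred from the range (2.30 to 16.02). The floor compresses differences of low genes. Probe sets with 1 gene symbol in GEO's platform annotation (34948, of which 34744 matched by Entrez ID) were reduced to 18194 genes, 1 probe set per gene with the highest mean. Probe sets used for Hk3, Aldoa, Pgd, Tkt and Slc2a3 are of types that can bind related transcripts.

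The deposited values were fitted in R 4.3.3 with limma 3.58.1 (lmFit, eBayes with trend), checked on simulated data. The first model held 20 arrays with terms for cell type and WT-titled arrays (10 residual degrees of freedom, 12078 genes), the panel model 15 arrays with terms for cell type and tissue (6, 11735 genes). Genes had to exceed the array's median on at least 2 arrays. P-values are Benjamini-Hochberg adjusted over all genes of a comparison, and 13 comparisons were made. Errors are limma's standard errors, and intervals are 95%. Other settings were another normalization, filter, probe set rule, variance model, choice of arrays and each array left out. The genes, marker lists and pathway lists were chosen with earlier results of these data known. The genes named are the members, with the called genes of the pathway lists that had the largest differences. Arrays of SatM 1 to 2, inflammatory monocytes, progenitors and granulocytes carry numbers in their titles. Same-numbered arrays of 2 groups had correlations of their deviations of -0.045 to 0.233 over 12078 genes, and the numbers were not treated as pairs.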

Additional observations from a re-analysis of the deposited data

Results flagged for a closer look

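In groups of 4 arrays, a single array stood apart from the other 3 by more than Dixon's critical value for some members. Chance does so in about 1 in 20 groups of normally spread replicates. That rate does not hold for all groups here. They mix tissues, or arrays with and without WT in the title, and some values lie at or near the floor. The first WT-titled cMoP array read 13.19 for Gapdh (others 13.84 to 13.95), 9.59 for Taldo1 (10.22 to 10.33), 4.30 for Fbp1 (2.30 to 2.40) and 5.45 for Vegfa (2.80 to 2.92). SMP array 2 read 11.51 for Hk2 (others 12.20 to 12.33), 9.78 for Fbp1 (2.30 to 2.33) and 3.31 for Vegfa (2.80 to 2.84), and the first WT-titled SMP array read 9.90 for Slc16a1 (7.21 to 7.65). Among the panel SatM arrays, lung read 7.68 for Aldoc (others 2.30 to 2.35) and 4.56 for Eno2 (2.30 to 2.34), and marrow read 7.56 for Fbp1, with the other 3 at 2.30. No cause was tested for these.

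The step from SMP to SatM differed from the step from cMoP to inflammatory monocytes for 14 of 33 members. This was a test of the difference itself (limma), in which 22.3% of all genes were called. The difference was positive for Pdk1 (5.64), Eno3 (3.85) and Tkt (1.67). It was negative for the transporters Slc2a3 (-3.84) and Slc2a1 (-1.41), for Hk3 (-3.35), Hk1 (-2.75), Hk2 (-1.85) and Pfkp (-2.11), for Pygl (-2.39) and Ldha (-1.13), for Taldo1 (-1.62) and Pgd (-1.59), and for Hif1a (-1.74). Slc2a3, Hk3, Ldha, Pgd and Pygl lost their calls in some other fits, and the other Hk1 probe set was not called, as given above.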

How the results depend on the processing

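Of 117 called member differences, 70 kept their call with every array left out in turn and 48 under every setting tried, and none changed sign. Counts of called members moved by over 1.5 times in a few places. With no filter SatM and inflammatory monocytes differed in 3 members. Inflammatory monocytes and cMoP differed in 3 with the replicate number as a block and in 14 with WT-titled progenitor arrays only. With the compared groups alone the panel counts were 2 (SatM and Msr1-Ceacam1- cells), 0 (M2-like macrophages and SatM, with 15 members at an unadjusted p under 0.05 in limma) and 0 (lung and marrow, with 7), where fewer residual degrees of freedom remain. Without the marrow Msr1dull Ceacam1dull array, an alternative added after seeing the data, M2-like macrophages and SatM differed in 6. The replicate block gave 16, 6, 13, 15, 17, 17, 10 and 30 for SMP and cMoP, the monocytes, SatM and SMP, the difference of steps, neutrophils against eosinophils and against basophils, basophils and eosinophils, and the F test.

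With 1 array left out in turn the counts ranged from 13 to 17 (SMP and cMoP), 2 to 6 (SatM and inflammatory monocytes), 1 to 6 (inflammatory monocytes and cMoP), 13 to 17 (SatM and SMP), 11 to 15 (difference of steps), 12 to 15 (neutrophils and eosinophils), 10 to 15 (neutrophils and basophils), 5 to 10 (basophils and eosinophils), 28 to 30 (F test), 4 to 11 (panel SatM and Msr1-Ceacam1- cells), 1 to 6 (M2-like macrophages and SatM), 0 to 4 (lung macrophages and SatM) and 4 to 12 (lung and marrow). Where this left 1 array in a group, that array was assumed to vary like the other groups. Of 69 called member differences over all comparisons with another tested probe set, 34 were called the same way on all, 15 on some and 20 on none. Members at the floor have differences of uncertain size.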
